A study of Mus musculus with 26 samples.

Results

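Onecut1, also called HNF6, belongs to a small family of transcription factors that pair a single cut domain with a homeodomain, and it is known from liver and pancreas as well as from newborn spinal motor neurons. The 4251 sites described here carried a Onecut1 event on day 5 and on day 6 of motor neuron differentiation and lay in chromatin that was open on day 6. They are the events of the day 5 Onecut1 list that had a day 6 Onecut1 event within 100 bp and a day 6 ATAC peak within 100 bp. They make up 18.3% of the 23245 day 5 events and 26.0% of the 16380 day 5 events with a day 6 event, out of 63488 day 6 events and 52645 day 6 ATAC peaks in all. The sites were chosen by measured values, the Onecut1 events of both days and the ATAC peaks of day 6, so those values describe them and were not tested.

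A DNA-binding factor of this kind reads a short sequence, and at an active enhancer its binding goes with loss of nucleosomes, which ATAC-seq and DNase-seq detect as open chromatin. The coactivator p300 is an acetyltransferase recruited by many factors, and acetylation of lysine 27 of histone H3 (H3K27ac) on the flanking nucleosomes marks active enhancers and promoters. Isl1 is a LIM-homeodomain factor required for motor neuron identity. It works in a complex with Lhx3 early in motor neuron life.

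Mouse embryonic stem (ES) cells were seeded on day 0 and received 1 uM retinoic acid (RA) and 0.25 uM SAG, a Hedgehog pathway agonist, on day 2. DAPT, which blocks Notch signalling, was given at 5 uM on day 4 for cells taken on day 5, and on days 4 and 5 for cells taken on day 6. Cells taken on day 0 or day 2 had received none of these, and cells taken on day 4 no DAPT. Between the days, time and these additions can therefore not be told apart. The labels call the day 5 and day 6 cells postmitotic motor neurons, the day 4 cells progenitors and the day 2 cells primitive ectodermal cells. Onecut1 and Isl1 binding was measured by ChIP-exo, where exonuclease digestion leaves DNA ends close to the bound protein, and p300 and H3K27ac by ChIP-seq.

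Apart from the induced lines below, the protocol field gives iCre as the line of every chromatin library used here except DNase-seq of day 0 (HBG3). The cell type field names Ainv15 for all. The sources used here do not state the genotype of these lines. The day 4 Ngn2 ChIP-seq used cells with a doxycycline-induced Ngn2 transgene and the V5 antibody (RA and SAG on day 2, 3 ug/ml doxycycline on day 3). A further day 4 ChIP-exo library, labelled Lhx3, used the same antibody in the iNIL line with RA and doxycycline on day 2 and no SAG in its label. Its deposited file is named for Isl1, so it is called the library labelled Lhx3. Isl1 had 2 libraries on each of days 5 and 6 and H3K27ac had 2 on day 4. All other assays had 1 library a day, so between days they have no replicate check. Nothing says that the replicates came from separate cultures, so the spread between them may be technical.

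RNA of the same days, with 1 library per day, gave the setting. Onecut1 itself was at 0.0586 FPKM (fragments per gene length and library size) on day 0 and 1.99 on day 4, and then at 12.5 (day 5) and 14.0 (day 6). Onecut2, a close relative, followed the same order, with 1.52 FPKM on day 4 and then 15.6 (day 5) and 18.4 (day 6), and Onecut3 stayed between 1.05 and 1.15 FPKM on days 5 and 6. For Isl1, the day 5 library gave 88.0 FPKM and the day 6 library 116.5, and Ep300, which encodes p300, lay between 10.6 and 13.7 FPKM on all 4 days. The 6 motor neuron markers summed to 180.0 FPKM (day 5) and 172.0 (day 6), and 5 and then 6 of them reached 1 FPKM. The 4 progenitor markers went from a sum of 201.4 FPKM (day 4) to 40.1 (day 5) and 9.49 (day 6). The 3 markers of V3 cells and floor plate summed to 10.4 and 11.6 FPKM on days 5 and 6. The 3 V2 markers summed to 1.81 and 1.02, the 4 markers of V0, V1 and dorsal interneurons to 4.36 and 1.83, the 3 glial markers to 11.9 and 10.0, the 3 ES cell markers to 0.105 and 0.115, and the 3 of mesoderm and endothelium to 0.811 and 0.434. Within these lists, Nkx2-2 of the V3 list was at 8.86 and 5.18 FPKM, Sim1 at 0.529 and 3.24, and Shh at 1.05 and 3.23. The glial sum came almost wholly from Mbp, at 11.5 and 9.90, while Gfap was at 0.0155 and then listed at 0. Of the interneuron list, Lhx1 was at 2.21 and 1.11 FPKM, Pou4f1 at 2.03 and 0.694, and Evx1 at 0.0482 and then listed at 0. The day 4 RNA came from HBG3 and the day 5 RNA from iCre, so a change of line and of day cannot be told apart. In these bulk cultures, fewer cells of a type and less signal per cell cannot be told apart either.

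The event of day 6 lay almost on top of that of day 5. At 1080 sites both were given the same base, at 57.4% they lay within 1 bp and at 83.6% within 10 bp of each other, although the rule allowed 100 bp. These shares were not counted for the other both-day events, so the closeness is not shown to be particular to open sites. The day 6 ATAC peak covered the event itself at 58.0% of the sites, and the median distance from the event to the middle of the peak was 39.5 bp. The median ATAC peak of each day was 100 bp wide. Near the limit of the rule, 161 both-day events lay 81 to 100 bp from an ATAC peak and 122 lay just outside, at 101 to 120 bp, with medians of 24 and 22.4 day 5 reads. For the distance between the Onecut1 events, 41 sites lay 81 to 100 bp apart and 15 open day 5 events lay 101 to 120 bp from a day 6 event, with medians of 13.5 and 12.8 reads.

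The sites were often crowded. Another of them lay within 100 bp for 2260 sites (53.2%). This share was not counted for other Onecut1 events, so crowding is not shown to be particular to these sites. The 4251 sites matched 3589 different day 6 events and 2917 different nearest ATAC peaks. Joined over 500 bp they formed 2906 regions, of which 1886 held 1 site, 761 held 2 and 259 held 3 or more, with 7 at most. Neighbouring sites therefore share their ATAC and H3K27ac peaks and are not independent. They were found on all 20 chromosomes listed, and took between 14.8% (chromosome 11) and 20.6% (chromosome 2) of the day 5 events of a chromosome.

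Onecut1 signal at these sites was strong on both days. The precipitated reads assigned to an event on day 5 had a median of 26.3, with 14.5 and 59 as quartiles and 603.1 as the highest value, and 5% of the sites had 9 or fewer. On day 6 the median was 106.6 reads, with quartiles of 55.5 and 184.2 (range 7 to 806.8). The 11142 Onecut1 events of both days with no ATAC peak on days 2, 4, 5 or 6 (called never open from here on) had medians of 12 and 23 reads, and all 23245 day 5 events had a median of 13. Open sites of both days made up 82 of the 100 strongest day 5 events and 688 of the 1000 strongest, against 9 and 132 never open ones. They matched 74 of the 100 strongest day 6 events.

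Reads on the 2 days were related over the sites, with a Spearman rho of 0.573 and a Pearson r of 0.573 on log2 reads (n = 4251 sites, 1 library a day, with shared local chromatin). Day 6 reads had a rho of 0.365 with the score of the day 6 ATAC peak. The median day 6 to day 5 ratio of reads was 3.13, against 1.81 at never open sites. Library depth is not stated in the sources used here, so these ratios do not say how binding changed. Control reads were 0 at 50.7% of the open sites and at 83.5% of the never open sites on day 5, and they did not exceed 14.7 at an open site. The part of open chromatin in the precipitated reads was not tested.

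**Figure D1:**
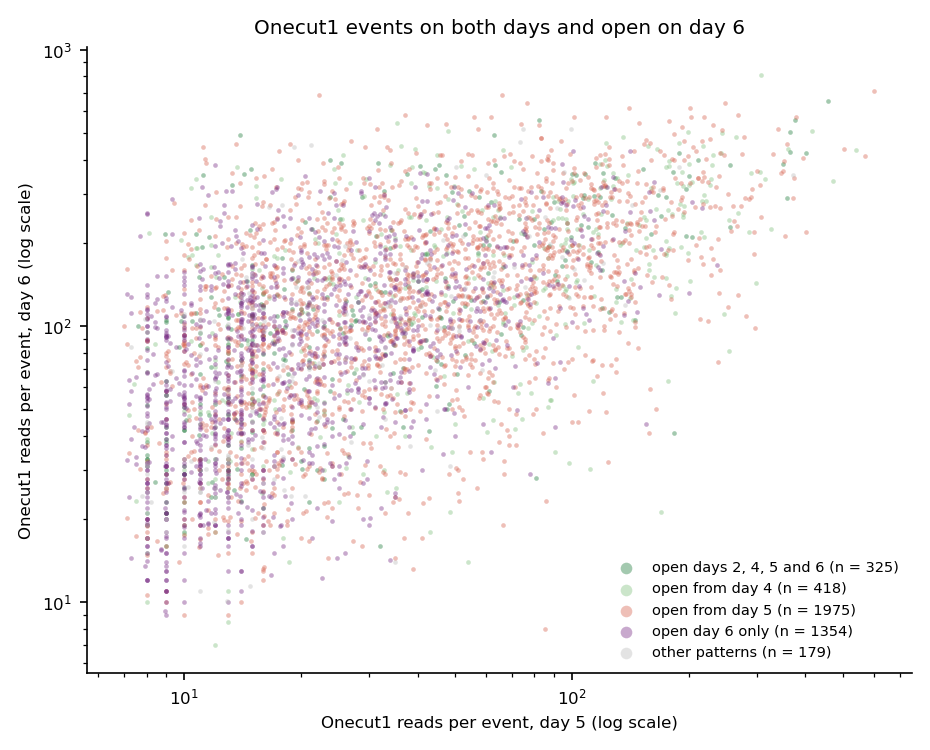
Precipitated Onecut1 reads at each of the 4251 sites on day 5 (x axis, log scale) and day 6 (y axis, log scale), 1 point per site, coloured by the days on which ATAC-seq called it open. The cloud rises from lower left to upper right (Spearman rho 0.573), and the sites open on day 6 only (median 17.25 and 84 reads) lie lower than those open from day 5 (36 and 125.1).

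Most of these sites were closed in progenitors and opened on day 5 or day 6. Of the 4251, 1975 (46.5%, exact Clopper-Pearson 95% interval 45.0 to 48.0) had ATAC peaks on days 5 and 6 only, and 1354 (31.9%, 30.5 to 33.3) had one on day 6 only. A further 418 (9.83%) were open from day 4 on, 325 (7.65%) were open on days 2, 4, 5 and 6, and 179 (4.21%) had an interrupted pattern. All intervals given here cover counting error only and treat sites as independent, which neighbouring sites are not.

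By day, 462 sites (10.9%) were open on day 2, 806 (19.0%) on day 4 and 2801 (65.9%, 64.4 to 67.3) on day 5. Over all 23245 day 5 events the shares were 3.67%, 6.17% and 19.2%. DNase-seq of ES cells listed a peak at 49 sites (1.15%), against 0.323% of all day 5 events. The DNase list is short, with 9955 peaks, while the ATAC lists held between 47839 and 85989. The share open on day 5 was higher where Onecut1 reads of day 5 were higher, going from 44.4% to 87.8% between the lowest and the highest of 5 equal groups of sites, while the share open on day 4 went from 18.3% to 27.5%.

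Open chromatin without Onecut1 followed another course. Of the 44437 day 6 ATAC peaks with no Onecut1 event of either day within 100 bp, 43.4% were open on all 4 days, 13.7% from day 5 and 19.1% on day 6 only. The same count on the 2921 ATAC peaks at the Onecut1 sites gave 9.38%, 42.2% and 34.8%. Of the 5300 Onecut1 events that were new on day 6 and lay in open chromatin, 15.5% were open on all days, 26.5% from day 5 and 45.2% on day 6 only. The new sites are counted per Onecut1 event and the other classes here per ATAC peak. No test was made between the classes, as each day has 1 ATAC library.

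Sites that opened early or on day 5 carried more Onecut1 than those open on day 6 only. Those open from day 4 had medians of 47.7 reads on day 5 and 147.8 on day 6, those open from day 5 had 36 and 125.1, those open on all days 23 and 105, and those open on day 6 only 17.25 and 84. The median ATAC score of day 6, a value of the authors' list, was 18.2 at sites open on all days and 7.7 at sites open on day 6 only.

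**Figure D2:**
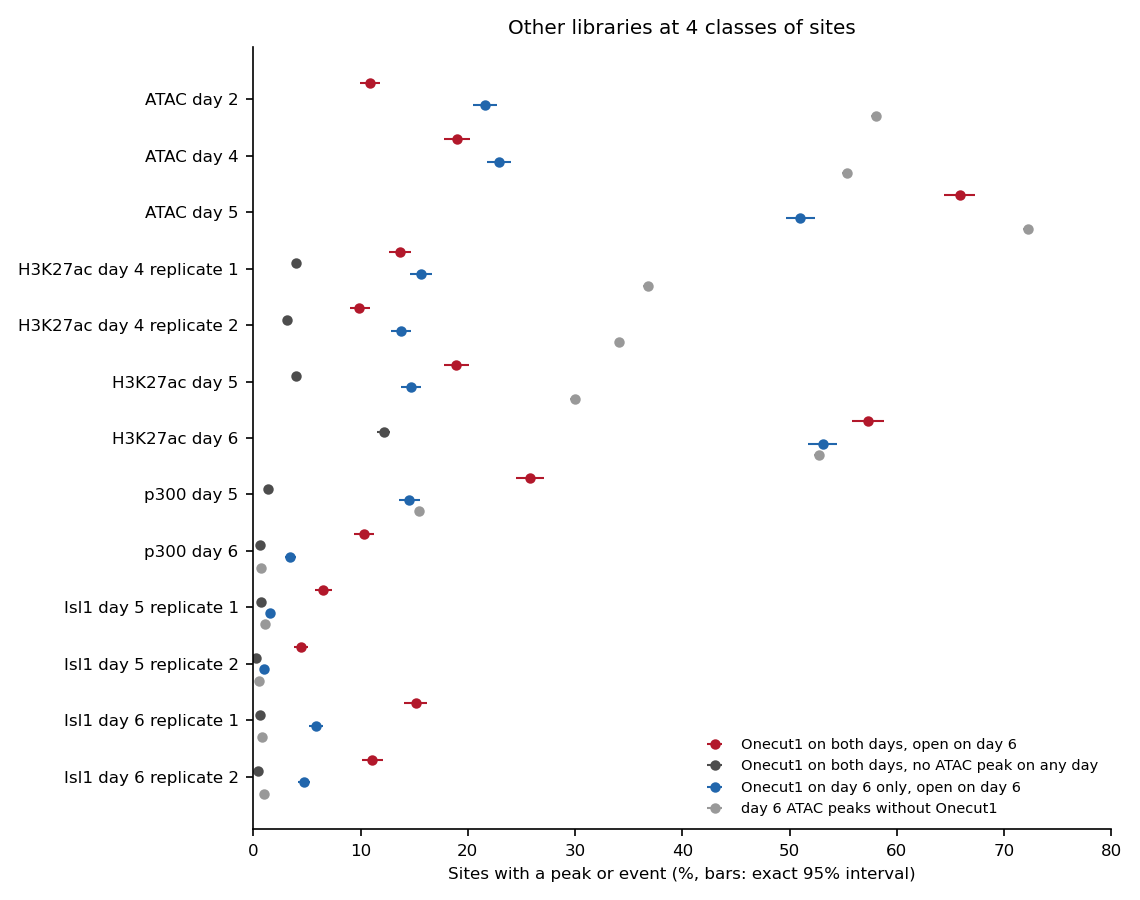
Share of sites (x axis, %, with exact 95% intervals) with a peak or event of each library (y axis) in 4 classes: the 4251 sites, the 11142 never open Onecut1 sites, 5300 Onecut1 sites new on day 6 and open, and 44437 open regions without Onecut1. Of the 4 classes drawn, the 4251 sites have the highest shares of p300 and Isl1, and they lie far below the open regions without Onecut1 for ATAC of days 2 and 4 and for H3K27ac of day 4. For ATAC of day 5 (65.9% against 72.2%) and H3K27ac of day 6 (57.3% against 52.8%) these 2 classes lie close to each other. ATAC is not drawn for the never open class, which is 0 by its definition. Open regions without Onecut1 are counted per ATAC peak and the other classes per Onecut1 event.

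H3K27ac, taken as a peak within 500 bp because acetylated nucleosomes flank an open site, appeared mainly on day 6. On day 4, 581 sites (13.7%) had a peak in replicate 1 and 421 (9.90%) in replicate 2, a mean of 11.8% ± 2.66 (SD, n = 2). The background over all day 5 events was 7.98% and 6.13%. Both libraries had a peak at 399 sites (9.39%, against 5.67% of all day 5 events) and at least 1 of them at 603 (14.2%, against 8.43%). On day 5, 804 sites (18.9%, 17.7 to 20.1) had a peak, against 9.00% of all day 5 events. On day 6 there were 2435 (57.3%, 55.8 to 58.8), against 23.5%.

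Peaks of H3K27ac were gained at more sites than they were lost. Of the 804 sites acetylated on day 5, 760 (94.5%) were so on day 6, and the same share was 82.3% over all day 5 events and 94.4% at open regions without Onecut1. On day 6 only, 1587 sites (37.3%) had a peak, against 14.9% of all day 5 events and 17.6% of open regions without Onecut1. A peak on each of the 3 days was found at 418 sites (9.83%, against 4.47% and 25.2%) and on day 4 only at 70 (1.65%, against 1.75% and 4.82%). No peak on any day was found at 1702 (40.0%, against 73.1% and 40.7%). The open regions are counted per ATAC peak. In that count, 36.5% of the peaks at the sites had H3K27ac on day 6 only and 8.80% on each of the 3 days. It was on day 4 only at 1.71% of them and on no day at 42.9%. The day 6 list is longer, with 47275 peaks against 24525 on day 5. With each list cut to its 24353 highest scores, the shares were 10.9% on day 4, 18.8% on day 5 and 41.1% on day 6, so the order of the days held. The day 6 peaks near the sites had a median score of 20.96 and a median width of 663 bp, against 13.3 and 415 bp over that list, whereas the day 5 peaks near them had 13.6 and 373 bp against 12.5 and 336 bp. The event lay inside the peak at 14.4% of the sites acetylated on day 5 and at 29.8% of those acetylated on day 6. The file of day 4 replicate 2 is named for HBG3 although its label gives iCre, and replicate 1 alone gave 13.7%.

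Open regions without Onecut1 differed from these sites mainly on the earlier days. At open regions without Onecut1, H3K27ac stood at 36.8% and 34.1% on day 4, 30.0% on day 5 and 52.8% on day 6. Counted in the same way, per ATAC peak, the 2921 peaks at the sites had H3K27ac at 12.5% and 9.79% on day 4, 16.7% on day 5 and 54.5% on day 6. The day 6 intervals (52.7 to 56.4% and 52.3 to 53.2%) overlap. At never open Onecut1 sites it was 3.98% and 3.15% on day 4, 3.94% on day 5 and 12.2% on day 6. Day 6 acetylation of the open sites was thus 45.1 percentage points above that of the never open ones. Because open sites have more Onecut1 reads, both classes were pooled, divided into 5 equal groups by day 5 reads and compared within each group. Acetylation on day 6 was then 38.2% of 285 open and 6.80% of 2794 never open sites in the lowest group (7 to 9 reads), and 65.8% of 1996 and 32.0% of 1083 in the highest (29.3 to 603.1 reads). The average difference within the 5 groups was 36.1 percentage points.

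p300 was found at a sizeable share of the sites on both days. On day 5, 1096 sites (25.8%, 24.5 to 27.1) had a p300 event within 100 bp, against 7.10% of all day 5 Onecut1 events. On day 6 it was 439 (10.3%, 9.43 to 11.3), against 2.53%. The lists differ greatly in length, with 19398 p300 events on day 5 and 1337 on day 6, and the order of the days depended on the cut. With the day 5 list cut to its 1337 events of highest −log10 p, 2.59% of the sites had p300 on day 5, below the 10.3% of day 6. With p300 events of −log10 q of at least 5, it was 18.2% on day 5 and 1.74% on day 6. A fall or rise of p300 between the days can therefore not be read from these counts.

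The short day 6 list was rich in these sites. Of its 1337 events, 254 (19.0%, 16.9 to 21.2) lay within 100 bp of one, and so did 43 of its 100 strongest. Of the day 5 list it was 684 events (3.53%, 3.27 to 3.80) and 2 of the 100 strongest. p300 was present on both days at 248 sites (5.83%), against 1.20% of all day 5 Onecut1 events and 0.333% of open regions without Onecut1. These were 56.5% of the sites with p300 on day 6, against 47.4% and 47.3% in those 2 sets. Counted per ATAC peak, like the open regions, the sites had p300 at 21.4% (day 5), 7.94% (day 6) and 3.97% (both days). Of those with p300 on day 6, 50.0% (43.4 to 56.6) had it on day 5, against 47.3% (41.6 to 53.0) without Onecut1. Never open Onecut1 sites had p300 at 1.36% on day 5 and 0.673% on day 6, open regions without Onecut1 at 15.4% and 0.704%, and Onecut1 sites new on day 6 and open at 14.5% and 3.45%. Over the same 5 groups, p300 of day 5 went from 6.67% to 36.2% at the open sites and from 0.322% to 7.39% at the never open ones.

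**Figure D3:**
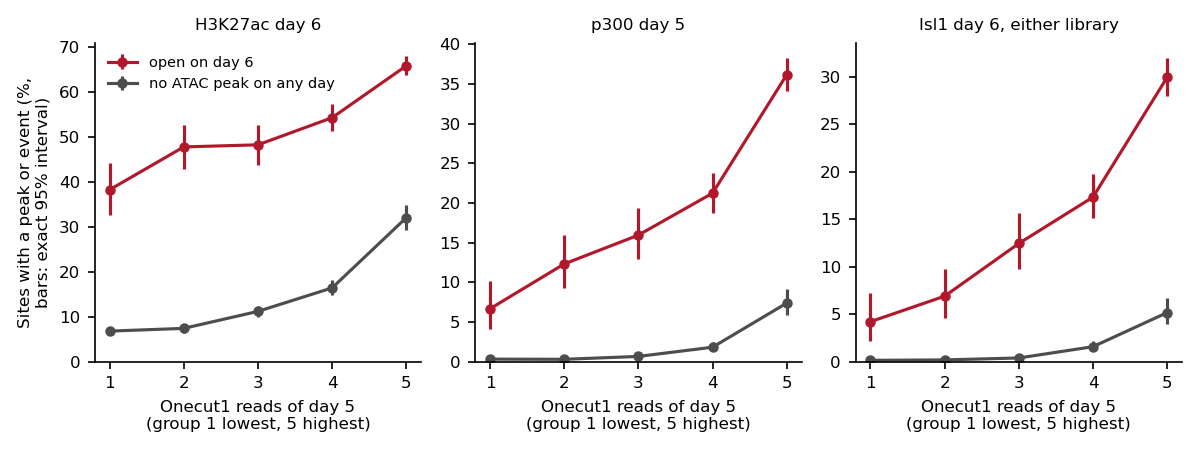
Share of sites (y axis, %, with exact 95% intervals) with H3K27ac on day 6, p300 on day 5 and Isl1 on day 6 in either library, in 5 equal groups by day 5 Onecut1 reads (x axis, 1 is the lowest). Sites open on day 6 lie above never open sites in each of the 5 groups and in all 3 panels, as for H3K27ac with 38.2% against 6.80% in the lowest group.

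Isl1 was found at more of the sites on day 6 than on day 5. An Isl1 event lay within 100 bp at 277 sites (6.52%) in replicate 1 and 188 (4.42%) in replicate 2 of day 5, and at 643 (15.1%) and 472 (11.1%) in the replicates of day 6. Both day 6 libraries lay above both day 5 libraries. Over all day 5 Onecut1 events the 4 shares were 2.43%, 1.40%, 3.57% and 2.65%. The mean went from 5.47% ± 1.48 (SD, n = 2) to 13.1% ± 2.84 (SD, n = 2), a difference of 7.65 percentage points. The exact two-sided permutation test gave p = 0.333, the smallest value that 2 libraries against 2 allow, so the design cannot reach 0.05.

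The same overlap can be counted from the side of the Isl1 lists, which is no independent support. The rule asked for an ATAC peak on day 6 but not on day 5. The part of this in the Isl1 difference was not tested. These sites held 6.81% and 9.92% of the Isl1 events of the day 5 libraries, and 26.7% and 19.9% of those of day 6. Among the 100 strongest Isl1 events of a library, 12 and 10 lay at these sites on day 5, and 43 and 23 on day 6. The deposited file of day 6 replicate 1 shares a mark in its name with the Onecut1 file of day 6, whereas the other 3 Isl1 files share a different one. Without that library the difference was 5.63 percentage points, from day 6 replicate 2 alone. Isl1 events of day 6 replicate 1 lay at a median of 16 bp from the Onecut1 event and 59.1% of the sites with one had it within 20 bp. In day 6 replicate 2 it was 25 bp and 43.9%, and in the day 5 libraries 27 and 29.5 bp, and 40.8% and 36.7%. The part of the shared mark in this was not tested.

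Isl1 was less frequent on day 6 in the following classes, and on day 5 in all but the last of them. The 6865 Onecut1 events found on day 5 only had Isl1 at 2.00% and 1.14% on day 5 and at 0.728% and 0.932% on day 6, a difference of −0.736 percentage points (exact permutation p = 0.333). Never open sites stayed between 0.251% and 0.691% in all 4 libraries. Open Onecut1 sites new on day 6 went from 1.55% and 1.00% to 5.83% and 4.72%. Open regions without Onecut1, counted per ATAC peak, lay between 0.495% and 1.11%. In that count, the peaks at the sites had Isl1 at 4.55% and 3.32% on day 5 and at 11.0% and 8.94% on day 6. The 987 Onecut1 events of both days that were open earlier but not on day 6 had Isl1 at 7.50% and 3.24% on day 5, next to 6.52% and 4.42% at the sites open on day 6, and at 6.38% and 3.34% on day 6.

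The sites called with Isl1 differed between the days, and also between the replicates of a day. At least 1 library had it at 364 sites (8.56%) on day 5 and 884 (20.8%) on day 6, against 3.04% and 5.05% of all day 5 Onecut1 events. Isl1 was called in either library of day 6 but none of day 5 at 680 sites, of day 5 but not day 6 at 160, and on both days at 204 of the 364. These are 16.0%, 3.76% and 4.80% of the sites, against 3.85%, 1.84% and 1.20% of all day 5 Onecut1 events. The replicates themselves shared little. Of the sites with Isl1 in either of 2 libraries, 27.7% had it in both for the day 5 pair and 26.1% for the day 6 pair, and between 9.34% and 17.4% for pairs across days. Events called in 1 library of a day and not in the other were therefore common, and whether they were missed or falsely called was not tested. Isl1 was in all 4 libraries at 25 sites (0.588%, against 0.125%).

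**Figure D4:**
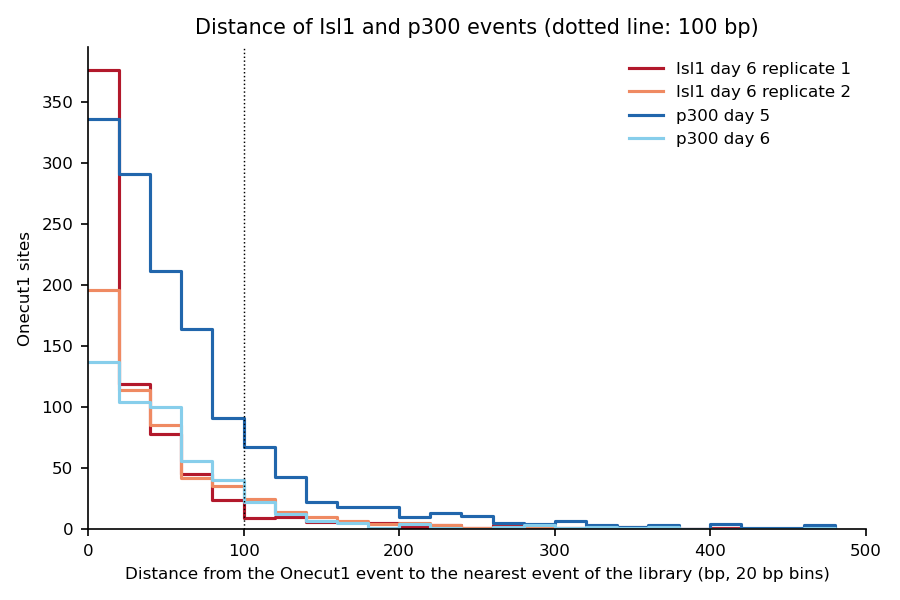
Number of the 4251 Onecut1 sites (y axis) by distance to the nearest Isl1 event of the 2 day 6 libraries or p300 event of days 5 and 6 (x axis, bp, in bins of 20 bp up to 500 bp). All 4 lines are highest in the first bin and are low beyond the 100 bp used here, and Isl1 of day 6 replicate 1 is the most concentrated, with 59.1% of its counted sites within 20 bp.

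The libraries of day 4 factors had few events at these sites. The library labelled Lhx3 had an event at 112 (2.63%), against 0.981% of all day 5 events, and 81 of these 112 also had Isl1 on day 5 (1.91% of the sites, against 0.589%). Ngn2, the proneural factor that drives cells out of the cycle, had a peak at 69 sites (1.62%, against 0.731%). Of these, 46 were among the 418 sites open from day 4, where Ngn2 reached 11.0%, while 2 lay among the 1354 sites open on day 6 only. Both maps are of day 4 cells of induced lines, so their numbers are not those of the day 5 and day 6 cells. RNA of both genes was higher on day 5 than on day 4, with Lhx3 at 2.09 and then 24.1 FPKM and Neurog2, which encodes Ngn2, at 19.7 and then 29.9.

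The time of opening split the sites by the marks they carried. Marks by time of opening are given for these sites only, so the split is not shown to be particular to them. Sites open on all days had H3K27ac on day 4 in either library at 52.6%, on day 5 at 40.6% and on day 6 at 63.4%, and sites open from day 4 at 45.7%, 45.2% and 68.4%. Sites open from day 5 had 7.90%, 19.0% and 64.5%, and those open on day 6 only 3.69%, 5.32% and 44.2%. On day 6, acetylation of the sites open from day 5 thus came within the counting error of that of the sites open on all days (62.3 to 66.6% and 57.9 to 68.6%). The sites open on day 6 only lay below both (41.6 to 46.9%).

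p300 and Isl1 were distributed differently over these classes. p300 of day 5 was most frequent at sites open from day 4 (52.2%), followed by sites open on all days (34.5%) and from day 5 (30.6%), and was at 9.68% of sites open on day 6 only. p300 of day 6 was at 6.15%, 11.0%, 13.6% and 6.43% of the sites open on all days, from day 4, from day 5 and on day 6 only. Isl1 of day 5 in either library was at 2.77%, 17.2%, 12.7% and 1.92% of these classes, and Isl1 of day 6 at 8.31%, 23.4%, 28.8% and 13.1%. Sites open since day 2 thus carried much H3K27ac and little Isl1. Day 6 Isl1 was lower there than at sites open from day 5 in each library, at 5.85% against 21.0% in replicate 1 and 2.77% against 16.7% in replicate 2.

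**Figure D5:**
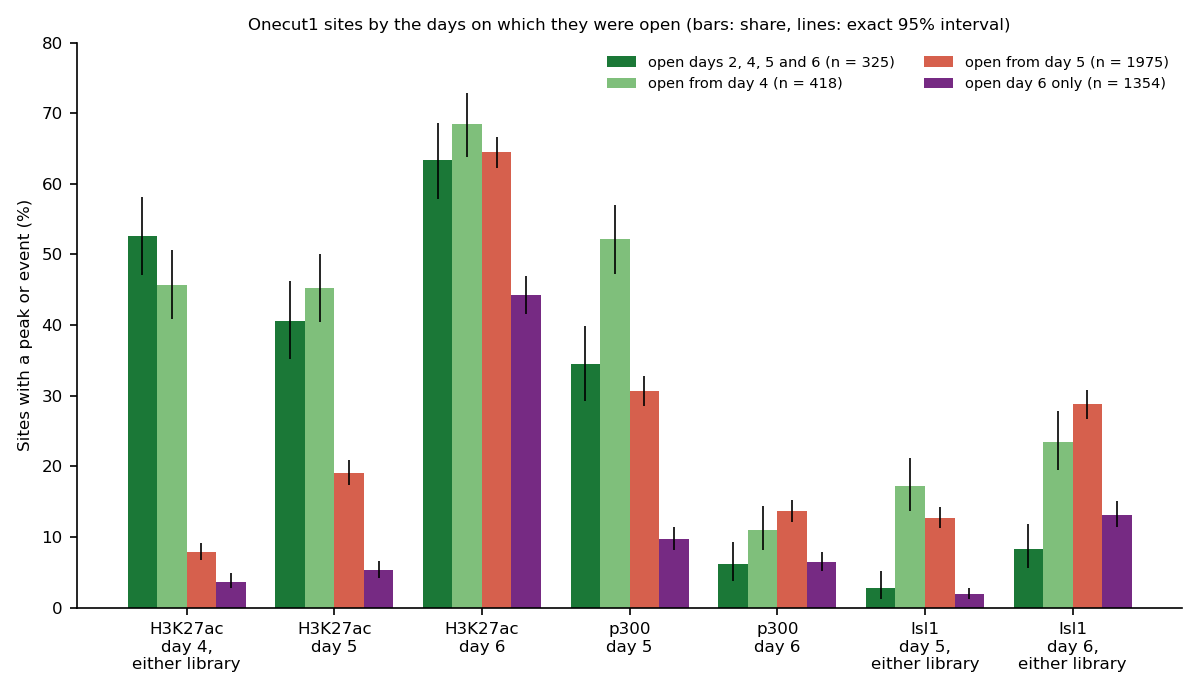
Share of sites (y axis, %, bars, with exact 95% intervals as lines) with H3K27ac, p300 or Isl1 (x axis) for the 325 sites open on all days, 418 open from day 4, 1975 open from day 5 and 1354 open on day 6 only. H3K27ac of day 4 is high only in the classes open on day 4, p300 of day 5 peaks at 52.2% in the class open from day 4, and Isl1 of day 6 is highest, at 28.8%, in the class open from day 5.

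Several marks were often found at 1 site. H3K27ac on day 6, p300 on either day and Isl1 in any library were all present at 499 sites (11.7%), 2 of the 3 at 936 (22.0%) and none at 1419 (33.4%). Over all day 5 Onecut1 events these shares were 2.67%, 6.42% and 72.9%. Per ATAC peak they were 8.52%, 19.4% and 37.4% at the sites, and 0.833%, 13.8% and 44.4% without Onecut1. Sites with Isl1 on day 6 had H3K27ac on day 6 at 78.2%, against 51.8% of those without, p300 on day 5 at 45.0% against 20.7%, and p300 on day 6 at 23.2% against 6.95%. H3K27ac on day 4 showed no such split, with 13.7% against 14.3%. Sites with p300 on day 5 had H3K27ac on day 6 at 85.5%, against 47.5%. Open regions without Onecut1 showed similar splits. There, H3K27ac on day 6 was at 85.8% with and 52.3% without Isl1 on day 6, and at 85.0% with and 46.9% without p300 on day 5. Sites with p300 on day 5 also had more Onecut1, with a median of 164.3 reads on day 6 against 95.7, and sites with Isl1 on day 6 had 180 against 94. The share with H3K27ac on day 6 went, from the lowest to the highest of 5 equal groups by day 6 reads, from 34.7% to 81.8%, that with p300 of day 5 from 13.7% to 49.6%, and that with Isl1 of day 6 from 4.00% to 43.6%. The part of Onecut1 signal strength in these joint shares was not tested.

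Single sites show these courses. Positions are of the mouse build mm9, given as the event of day 5, and a value listed for a factor is its reads at the event, while H3K27ac and ATAC values are peak scores of the authors. The strongest site over both days, at chromosome 11 position 102825203, had 603.1 Onecut1 reads on day 5 (2.3 control reads) and 709.3 on day 6 (15 control reads). It was open from day 5 and had H3K27ac from day 5, with a score of 31.98 and then 51.04. p300 had 125 reads there on day 5 and 64 on day 6. Isl1 had 40 and 21 reads in the day 5 libraries and no event on day 6.

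The next in rank, at chromosome 7 position 134592606, had 457.7 and 653.9 Onecut1 reads with 0 control reads on either day. It had ATAC peaks on days 2, 4, 5 and 6 but no DNase peak on day 0, and it was acetylated in each library from day 4 on, with H3K27ac scores of 142.09 and 115.42 on day 4, 88.78 on day 5 and 225.7 on day 6. A second one on chromosome 7, at position 139694831, had 378.4 and 571.3 reads and opened on day 5, a day before its H3K27ac peak, which had a score of 57.11 on day 6. p300 was there on both days with 86 and 58 reads, and no Isl1 library had an event. On chromosome 18, the site at position 35974479, with 376.9 and 556.5 reads, was the only one of the 5 strongest with a DNase peak in ES cells, and it had p300 on both days with 181 and 58 reads. The site at chromosome 11 position 35343702 had 340.5 and 514.5 reads and opened on day 5. Its H3K27ac score was 10.56 on day 5 and 89.13 on day 6, when the peak was 5386 bp wide, and p300 had 368 reads on day 5. It had Isl1 in all 4 libraries, with 55.3 and 17.3 reads on day 5 and 36.7 and 13.7 on day 6.

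A pair of other sites with Isl1 in all 4 libraries differed in acetylation. The site at chromosome 14 position 27899345 had 31.1 and 28 Isl1 reads on day 5 and 37 and 43 on day 6, was open from day 5 and had 78 p300 reads on day 5. No H3K27ac peak lay within 500 bp on any day. On chromosome 13, the site at position 47636257 had 49.2 and 26.1 Isl1 reads on day 5 and 180.6 and 137.2 on day 6, and 68 reads of the library labelled Lhx3. It gained an H3K27ac peak with a score of 148.05 and a width of 1645 bp on day 6. Onecut1 had 201.8 reads there on day 5 (11.8 control reads) and 614.8 on day 6 (43 control reads).

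Strong Onecut1 signal on day 5 was also listed at sites with no ATAC peak before day 6. Of the 521 sites open and acetylated on day 6 only, the first by the worse of its ranks on the 2 days lay at chromosome 5 position 113022813, with 163 Onecut1 reads on day 5 against 1.5 control reads. No ATAC peak was called there before day 6, when the ATAC score was 13.4 and the H3K27ac score 25.71. p300 had 42 reads there on day 5, and Isl1 had 22 reads in day 5 replicate 1 and 11.6 and 15 on day 6. The site at chromosome 19 position 27060901 had 128.3 and 312.1 Onecut1 reads, 0 control reads on day 5 and no event of p300 or Isl1 in any library. On chromosome 13, the site at position 108309716 had 217 and 267.2 reads with 0 control reads on both days, and Isl1 in day 6 replicate 1 alone, with 11 reads.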

How the data were processed

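The authors deposited 1 event or peak list per library, on mm9. Bowtie 0.12.7, HOMER 4.7.2, MACS and STAR are named in the submitters' processing notes without roles. Per the file headers, event lists give the signal of an event as precipitated and scaled control reads, the fold ratio of these, and −log10 q-values and p-values. The lowest −log10 q of the Onecut1 lists was 2. The deposited H3K27ac, ATAC, DNase and Ngn2 lists give each peak a score, used only within a list. For ATAC this column has no name and is taken as a score. RNA values are FPKM made by the authors. Reads per library are not given in the sources used here, and the control libraries themselves were not used here.

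Events were joined by distance in python 3.11.15 with numpy 2.4.6, pandas 2.3.3 and scipy 1.17.1 (100 bp, 500 bp for H3K27ac). The distance code was tested on simulated data: 0 of 8000 distances differed from brute force. The members and lists were chosen with earlier results of these data known. Shares have exact 95% intervals, and Isl1 was compared by an exact permutation test. Named sites are the 5 best by the worse of their ranks of reads on the 2 days, and the 3 best of those with 4 Isl1 libraries, of those open and acetylated on day 6 only, and of those with p300 on both days, 1 per 500 bp. The alternatives changed distances, thresholds, peak scores, list lengths, members per region and libraries. No mm9 genome was used, so sites are not tied to genes and no sequence is shown. The replicate numbers of Isl1 did not pair the libraries (correlation of same-numbered deviations 0.013).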

Additional observations from a re-analysis of the deposited data

Results flagged for a closer look

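The share of the open Onecut1 sites of both days with Isl1 and that of the Onecut1 sites of day 5 only moved in opposite directions. At the former, both day 6 Isl1 libraries lay above both day 5 libraries, with a difference of 7.65 percentage points. At the latter, both day 6 libraries lay below both day 5 libraries, with a difference of −0.736 percentage points. The log2 ratio of the shares of these 2 classes was 1.71 and 1.96 in the day 5 libraries and 4.38 and 3.57 in those of day 6, a difference of 2.14 (exact two-sided permutation p = 0.333, the smallest that 2 libraries against 2 allow). The classes were defined by the Onecut1 list of day 6, and 1 of the day 6 Isl1 libraries shares its file mark with that list.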

How the results depend on the processing

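The number of sites was 3560 with both distances at most 50 bp, 4780 at 200 bp and 2906 after merging, and 2394 with −log10 q of at least 5 in both Onecut1 lists. For each share that follows, values are in the order narrower distance, wider distance where it moved the share, stricter Onecut1 sites and 1 site per region. Open on day 5 were 56.3%, 69.0%, 75.9% and 61.6%, and 59.6% at equal list lengths (an alternative added after seeing the data, as are the other equal lists). H3K27ac was 8.40%, 21.0%, 24.0% and 16.8% on day 5, and 38.4%, 64.3% and 54.4% on day 6, where the wider distance stayed within the interval. At 100 bp it was 7.73% on day 4. With the upper part of the scores, split at the median, it was 6.97% on day 4, 11.8% on day 5 and 40.2% on day 6, and 41.1% on day 6 at equal list lengths. Leaving out 1 of the 2 day 4 libraries gave 9.90% to 13.7%. p300 was 17.8%, 29.7%, 34.0% and 22.0% on day 5 and 7.15%, 11.4%, 13.7% and 8.50% on day 6. With p300 events of −log10 q of at least 5 it was 18.2% on day 5 and 1.74% on day 6, and 2.59% on day 5 at equal list lengths, which turned the order of the days.

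The Isl1 difference stayed positive under every alternative tried, from 5.63 to 9.66 percentage points when 1 library was left out (with 1 library in an arm, that library is assumed to vary like the others). It was 6.35 at equal list lengths and 14.9 as the share of Isl1 events. With the replicate block it was 7.65 percentage points (exact sign test, p = 0.5, the smallest 2 pairs allow), but the numbers did not pair the libraries. The differences from never open sites were smaller within 5 equal groups by Onecut1 reads, at 36.1 in place of 45.1 percentage points for H3K27ac of day 6, 16.4 in place of 24.4 for p300 of day 5 and 7.90 in place of 12.6 for Isl1 of day 6. The cause of these changes was not tested.

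Peak lists show only what passed a caller's threshold, and the depth behind each list is unknown here. Single libraries leave the changes between days of Onecut1, p300, ATAC and H3K27ac without a replicate check.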

Other observations

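Of the 987 Onecut1 events of both days that were open on day 2, 4 or 5 but not on day 6, 77.4% were open on day 5, 28.1% on day 4 and 17.1% on day 2. H3K27ac was there at 22.2% and 16.1% on day 4, 22.0% on day 5 and 36.2% on day 6, so its day 6 share lay between those of the open (57.3%) and never open sites (12.2%). p300 of day 5 was at 15.6%.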
